A study of Rattus norvegicus with 2 samples.

Results

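The genes examined here are those of the rat major histocompatibility complex, which carry the prefix RT1, together with 6 genes that serve them: Cd74, Ciita, B2m, Tap1, Tap2, and Tapbp. Members were all probes other than controls whose gene name in the array files starts with RT1- and all probes with 1 of those 6 names, which gave 54 of the 36174 gene names on the array and 77 of its 45598 probes. The descriptions in the files, or the locus letter where they name no class, placed 38 genes (58 probes) in class I and 10 genes (10 probes) in class II. The rule uses names and no measured value, although it was set with earlier results of these data known.

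Cervical lymph nodes came from male Sprague-Dawley rats 10 to 12 weeks old, either unstressed controls (C) or rats under restraint stress (RS), a procedure that immobilizes the animal. No other treatment set the groups apart in the labels, and the nodes of the study were taken after halothane anesthesia and an overdose of pentobarbital. RNA of each group was hybridized to 1 array, so that differences below rest on a single sample per group and were not tested. The labels do not give the restraint time of the RS array, which the microarray section of the paper places in the shortest of its restraint groups, and the sources used here do not give the number of rats behind an array.

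Class I molecules pair a heavy chain with beta-2-microglobulin and show peptides from inside the cell to CD8 T cells. Class II molecules pair an alpha with a beta chain and show peptides from engulfed proteins to CD4 T cells, mainly on B cells, dendritic cells, and macrophages. In the rat, classical class I genes lie at the RT1-A loci, and the many RT1-CE, RT1-N, RT1-S, RT1-T, and RT1-M genes on the same chromosome are nonclassical and vary between strains. A lymph node holds the lymphocytes and antigen-presenting cells in which both classes are abundant.

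Each array was read in 1 color (Cy3), and a brighter spot means that more labeled RNA bound its 60-base probe. On the log2 scale, the 75th percentile over the probes of an array, an intensity of 189 for C and 176 for RS, was subtracted, and a difference is RS minus C, so that a negative value means a lower signal on the RS array. The scanner software marked 54.7% of all probes on the C array and 54.9% on the RS array as well above background, which is called the background mark here, and a probe so marked on at least 1 array is called measured. The arrays shared 1 slide and 1 scan. Among the members, 64 of 77 probes and 46 of 54 genes were measured, 63 probes on both arrays and 1, the second probe of RT1-S2, on the C array only. None was saturated.

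Many class I genes are near copies of one another, and the probes show how far a signal belongs to 1 gene. Of all pairs of RT1 probes, measured or not, 7 matched at 90% or more of the bases over an overlap of at least 40 bases. They formed 6 families with 13 probes, all of class I. At 80% or more there were 21 pairs. No class II probe was in any of these pairs, and none linked the classes. In the stretches of 30 bases below, shown because they bound the reading of single class I genes, capitals mark the bases at which a pair differs. The positions are those of the whole probe, as the files give them in build rn4 of the rat genome, and exon or intron was not looked up, since no annotation of that build was used.
RT1-A1, chr20:5060187-5060246, plus strand: GctggatggaatacttagAggttttttgtt
RT1-A3, chr20:5002119-5002178, plus strand: ActggatggaatacttagGggttttttgtt
RT1-N2, chr20:2787802-2787861, plus strand: tctgcaattgTcctctgTgttgctgctgCT
RT1-N3, chr20:2809067-2809126, plus strand: tctgcaattgCcctctgCgttgctgctgTG
RT1-CE16, minus strand of a chromosome 20 contig not placed in the build: tgtggccatcattgcagctGtgatcattgT
RT1-EC2, chr20:5059139-5059198, plus strand: tgtggccatcattgcagctTtgatcattgG

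The probes of RT1-A1 and RT1-A3 matched at 45 of 47 overlapping bases, and those of RT1-N2 and RT1-N3 at 45 of 49. For RT1-CE16 and RT1-EC2 it was 55 of 58. Signals of such genes may be shared, and each is given below under the name in the files.

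Another class I probe carried a stretch that is not particular to the complex. The probe of RT1-CE1 holds a run of alternating T and G, of which 30 bases are shown because probes of unrelated genes hold them too. The position given for it spans fewer bases than the 60 of the probe.
RT1-CE1, chr20:3552010-3552065, minus strand: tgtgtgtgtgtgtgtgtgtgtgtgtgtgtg

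On the array, 11 probes of other names hold a run of 30 or more bases of this probe, among them those of Prox1, Spag7, Iba57, and Crispld1. All were higher on the RS array, by log2 differences of 0.19 to 0.37 with a median of 0.29. With a shared run of 20 bases there were 32 such probes, and all 32 were higher, with a median of 0.28. The RT1-CE1 probe, at 0.25 ± 0.14, lay in that range. These comparisons were chosen after the values were seen, and what the probe bound was not tested.

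No member passed 2-fold in either direction, where 7.22% of the 26186 measured probes on the array did so (3.92% lower and 3.30% higher). The members were nevertheless mostly lower on the RS array: 55 of 64 probes had a negative difference, compared with 47.1% of all measured probes. The median was -0.26 for the members and 0.02 for all measured probes, whose middle 50% ran from -0.20 to 0.22. A reduction of 1.2-fold or more was seen for 32 of 64 member probes (20.4% of all probes) and an increase of that size for 1 (21.5% of all probes). The error of a difference, combined from the errors that the scanner software gives for the spots of both arrays, was about 0.20 for a probe with a single spot on each array. It covers the spot measurement and not the spread between rats. Differences of more than 2 such errors were found downward for 18 of 64 members (9.47% of all probes) and upward for 0 (10.5%). Probes that target 1 gene or a near copy are not independent of one another, and all share the same arrays.

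**Figure D1:**
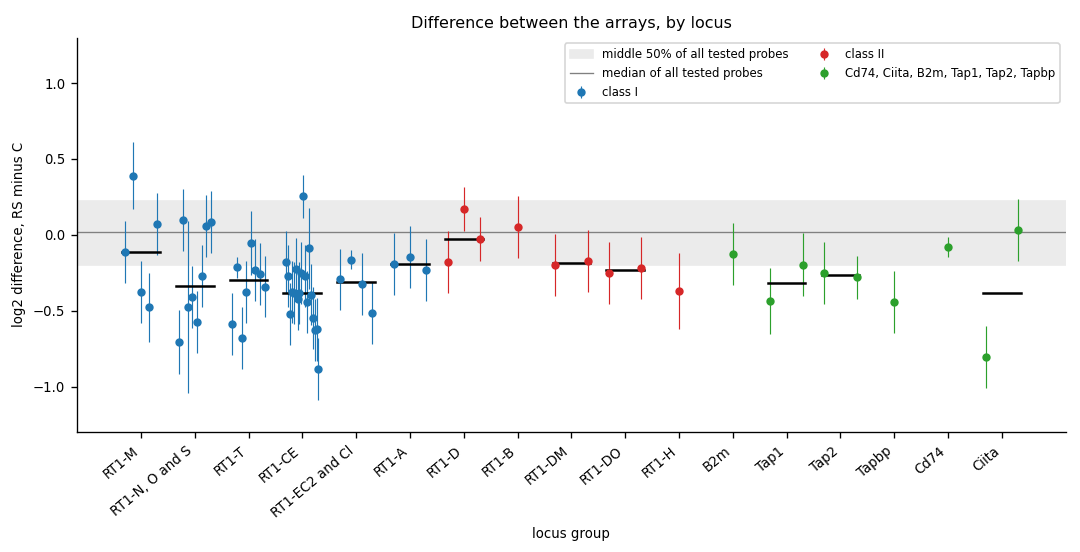
Log2 difference (RS minus C, vertical axis) of every measured probe of the RT1 genes and the 6 added genes, by locus group (horizontal axis). Bars are the spot error, black lines the median of a group with several probes, and the gray band the middle 50% of all measured probes, from -0.20 to 0.22; the 18 RT1-CE probes center on -0.38 and the 3 RT1-D probes on -0.03.

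The classical class I genes of the RT1-A loci were modestly lower on the RS array. RT1-A1 had an intensity of 46198 for C and 36741 for RS, a log2 difference of -0.23. RT1-A2 gave 36479 and 30807 (-0.15), and RT1-A3 gave 33286 and 27269 (-0.19). All 3 differences had the same direction, and none exceeded 2 times its spot error. A second probe of RT1-A3 passed the background mark on neither array.

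The RT1-CE genes, the largest nonclassical cluster on the array, had 13 genes and 18 probes, all measured. Their median was -0.38, 17 of 18 were lower on the RS array, 13 by 1.2-fold or more, and 7 by more than 2 spot errors. The exception was the RT1-CE1 probe with the T and G run, which read 20157 and 22442. Its 2 spots on the C array, 19714 and 20609, lay below its 2 spots on the RS array, 22043 and 22849.

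Of the RT1-CE probes above the 75th percentile, RT1-CE5 was among the lower ones, with 3385 on the C array and 2205 on the RS array (-0.52). RT1-CE11 was lower still, at 306 and 185 (-0.63, or 1.54-fold). The intensities of RT1-CE10 were 390 and 279 (-0.38), and those of RT1-CE4 933 and 671 (-0.38). These 4 genes were all lower on the RS array. RT1-CE14 read 2063 and 1467 (-0.39), and RT1-CE12 read 2262 and 1863 (-0.18). RT1-CE14 and RT1-CE4 belong to 1 family of alike probes with RT1-CE15, in which the differences ran from -0.42 to -0.38.

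For genes with several RT1-CE probes, both probes pointed downward in each case. The probes of RT1-CE13 read 1915 and 1371 (-0.38) and 1336 and 853 (-0.55). Those of RT1-CE16 read 9926 and 7778 (-0.25) and 2269 and 1815 (-0.22). The probes of RT1-CE7, which overlap in position, read 1704 and 1317 (-0.27) and 1537 and 1192 (-0.27). Agreement was thus close for RT1-CE16 and RT1-CE7 and looser for RT1-CE13. RT1-CE15 gave 2878 and 2002 (-0.42) with 1 probe and 251 and 127 with the other, at -0.88 the lowest value of any member, or 1.84-fold lower. RT1-CE3 gave 447 and 307 (-0.44) and 200 and 122 (-0.62). The second probe of RT1-CE15 holds a run of at least 6 alternating A and G bases, as do 2 of the 46 class I probes and 1229 of all 26186 measured probes. RT1-CE6, a dim probe, read 23.1 and 20.3 (-0.09).

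RT1-EC2 and RT1-Cl, placed in class I, had 4 measured probes, all lower on the RS array. None of the 4 matched a RefSeq gene of build GRCr8. In build rn4, the RT1-EC2 probe whose sequence is shown above lies within the range of the RT1-A probes. The one printed in 10 spots lies on an unplaced contig of chromosome 20. Which locus these probes read was not tested. The probe of RT1-EC2 printed in 10 spots ranged from 20941 to 23243 on the C array and from 17625 to 19380 on the RS array. The spots of the arrays did not overlap, and the difference was -0.16 ± 0.06. Of the other RT1-EC2 probes, the one whose sequence is shown above read 5737 and 4371 (-0.29), and the last read 1348 and 1005 (-0.33). RT1-Cl read 1087 on the C array and 711 on the RS array (-0.51).

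The RT1-T genes were lower at all 8 measured probes, with a median of -0.30. The RT1-T24-4 probe printed in 10 spots ranged from 18233 to 20629 over the spots of the C array and from 15122 to 16611 over the 9 used spots of the RS array. Again the spots did not overlap, with a difference of -0.21 ± 0.07. A pair of RT1-T24-4 probes with identical sequence serves as a repeat within the array: they read 4024 and 2968 (-0.34) and 3960 and 2845 (-0.38). That pair differed from each other by much less than the spot error. RT1-T24-3 was lower at 2898 and 1802 (-0.59) with its brightest probe, whereas its second measured probe read 109 and 98.3 (-0.05). RT1-T18 read 3080 and 2401 (-0.26). The probes of RT1-T24-1 read 365 and 290 (-0.23) and 275 and 160 (-0.68), and the second of these holds an A and G run.

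In the region of the RT1-N, RT1-O, and RT1-S genes, the N genes stood apart from their neighbors. RT1-N2 read 701 on the C array and 681 on the RS array, a difference of 0.06. The probes of RT1-N3 read 923 and 915 (0.09) and 429 and 428 (0.10). These 3 differences were positive after scaling and within the spot error, and without scaling between the arrays all 3 turned negative. RT1-S3 read 1907 and 1342 (-0.41) and 1109 and 696 (-0.57), and the bright probe of RT1-S2 read 5785 and 4486 (-0.27). RT1-O1 read 91.9 and 52.5 (-0.71). The S and O genes were therefore lower at every measured probe. The second probe of RT1-S2 passed the background mark only for C, with 12.7 there and 5.63 on the RS array. Set against the dimmest RS signal that passed the mark, an intensity of 8.52, it was lower by a bound of 1.39-fold (-0.48). That bound was within its spot error of 0.57. Its plain ratio of -1.08 would be the only member value past 2-fold.

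Of the RT1-M genes, the part of the complex farthest from the RT1-A loci on the chromosome, only 5 of 12 probes were measured. RT1-M3-1, a homolog of the mouse gene whose product shows formylated peptides, read 1838 and 1588 (-0.11) with its bright probe and 541 and 531 (0.07) with the other. RT1-M6-2 read 5108 and 3668 (-0.38). Its probe matched the brighter probe of RT1-CE16 at 46 of 56 overlapping bases, and whether it bound RNA of other genes was not tested. The dim probe of RT1-M10-1 read 46.2 and 56.5 (0.39), the highest value of any member and the only increase of 1.2-fold or more, and that of RT1-M2 read 61.2 and 41.0 (-0.48). The M genes thus held both directions, 3 probes lower and 2 higher. RT1-M1-2, RT1-M1-4, RT1-M1-5, RT1-M4, RT1-M5, and RT1-M6-1 passed the background mark on neither array, nor did further probes of RT1-M10-1, RT1-N2, RT1-T18, and RT1-T24-3, or the probe of RT1-T24-2.

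**Figure D2:**
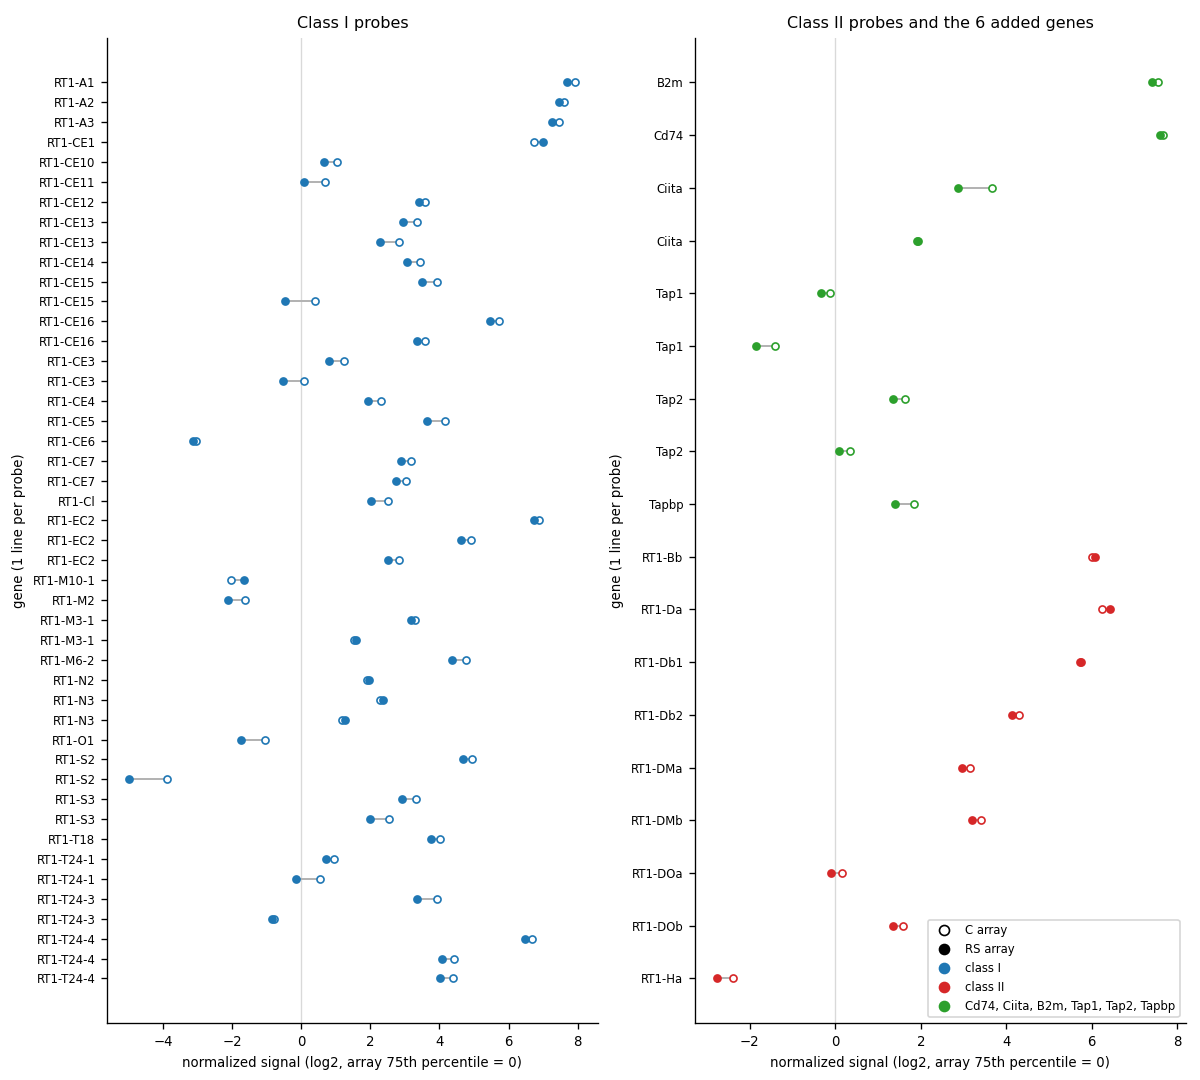
Normalized signal (log2, 75th percentile of the array at 0, horizontal axis) of each measured probe on the C array (open circles) and the RS array (filled circles), 1 line per probe on the vertical axis. The filled circle lies left of the open one for 40 of 46 class I probes and 7 of 9 class II probes; for the dim RT1-S2 probe the RS signal itself is drawn, which did not pass the background mark.

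Among the 6 added genes, the partners that load class I molecules were also lower at every probe. B2m, the common light chain of class I, read 35241 and 30204 (-0.12), within the spot error. Tap1 and Tap2 form the pump that carries peptides into the endoplasmic reticulum. The probes of Tap1 read 173 and 141 (-0.20) and 71.1 and 49.0 (-0.44), and those of Tap2 read 589 and 453 (-0.28) and 239 and 187 (-0.25). Tapbp, or tapasin, which bridges the pump and the empty class I molecule, read 679 and 466 (-0.44). All 6 probes of these genes were negative, and those beyond 2 spot errors were the dimmer Tap1 probe and Tapbp.

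Among 11 other genes of class I loading and processing, all measured, none passed 1.5-fold, and 9 were lower on the RS array, with a median of -0.16. For Nlrc5, the activator of class I transcription, the difference was -0.40, from 3254 to 2306. The immunoproteasome subunits Psmb8, Psmb9, and Psmb10 gave -0.03, -0.32, and -0.26, and the proteasome activator subunits Psme1 and Psme2 gave -0.56 and -0.19. Canx and Erap1, a chaperone and a peptide-trimming enzyme of the endoplasmic reticulum, gave 0.10 and 0.15. The median over all 21096 measured genes, each by its brightest probe, was 0.02. Of these 21096 genes, 3465 passed 1.5-fold in either direction, the share to set beside the counts of each list.

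Class II genes differed little between the arrays, by about as much as the RT1-A genes. The median of the 9 measured probes was -0.18, 7 of 9 were lower on the RS array, 1 by 1.2-fold or more, and 0 exceeded 2 spot errors. Of the chains that present peptide, RT1-Da, the alpha chain of RT1.D, read 14386 and 15130 (0.17 ± 0.14). Its spots on the C array, 14087 and 14691, lay just below those on the RS array, 14734 and 15536. RT1-Db1, a beta chain, read 10160 and 9322 (-0.03), and RT1-Db2 read 3738 and 3085 (-0.18). The beta chain of RT1.B, RT1-Bb, read 12190 and 11821 (0.05). These D and B chains thus lay on both sides of 0. The probe of RT1-Ba, the alpha chain of RT1.B, passed the background mark on neither array, so that the pair of RT1.B chains could not be compared.

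The DM and DO genes of class II, whose products act inside the cell, were each lower, by less than 2 spot errors. RT1-DMa and RT1-DMb, whose product exchanges peptides on class II molecules, read 1665 and 1377 (-0.18) and 1997 and 1625 (-0.20). RT1-DOa and RT1-DOb, which restrain that exchange, read 211 and 166 (-0.25) and 562 and 451 (-0.22). RT1-Ha, the alpha chain gene of the H locus with a dim probe, read 36.0 and 26.0 (-0.37), also within 2 spot errors and the lowest class II value.

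Cd74, the invariant chain that guides class II molecules, was read in 10 spots. They ranged from 36342 to 40965 on the C array, and the 9 used spots on the RS array from 32703 to 35432, without overlap before scaling. After scaling the difference was -0.08 ± 0.07. For Ciita, the master activator of class II transcription, the brighter probe read 2406 and 1286, a difference of -0.81, or 1.75-fold lower. Its other probe read 707 and 676 (0.03), so that the direction of Ciita is not settled by these arrays. Their positions in the files lie on chromosome 10, at 5086386 to 5086445 and at 5087176 to 5087235. Among 12 other genes of class II processing and regulation, all measured, 8 were lower, the median was -0.03, and only Ctss, which encodes the invariant chain protease cathepsin S, passed 1.5-fold, at 5033 and 2890 (1.63-fold lower).

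Set side by side, the class I median of -0.31 lay 0.13 below the class II median of -0.18. The arrays give no error for a gap between medians of a class. Within class I, the median was -0.11 for 5 RT1-M probes, -0.19 for 3 RT1-A probes, and -0.38 for 18 RT1-CE probes. The classical RT1-A genes thus lay near the class II median, and the gap was not theirs. On the linear scale, the medians correspond to 80.7% and 88.4% of the C signal. Of the 46 class I probes, 21 lay below the lowest class II probe, 23 within the class II range, and 2 above it. Differences beyond 2 spot errors numbered 15 of 46 in class I and 0 of 9 in class II, where 9.47% of all probes were lower and 10.5% higher by as much. With 9 class II probes on 2 arrays, this is a description of these libraries, and it does not show that restraint acts differently on the classes.

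The order of the class medians was the same among bright probes. Among those above the 75th percentile, the median was -0.28 for 38 class I probes, of which 33 were lower, and -0.18 for 8 class II probes, of which 6 were lower. Over all 11390 probes above that level it was 0.03, with 4911 lower. Class I probes without a partner at 90% identity or more had a median of -0.38 (29 of 33 lower), and those in a family had -0.27 (11 of 13 lower). The first set is not one of gene-specific probes, since some of it matched another probe below 90%. RT1-CE11 and RT1-Cl, for example, matched at 40 of 45 bases. The median base content in G and C was 45% for class I probes, 53.3% for class II, and 43.3% for all, and its part in the result was not tested.

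**Figure D3:**
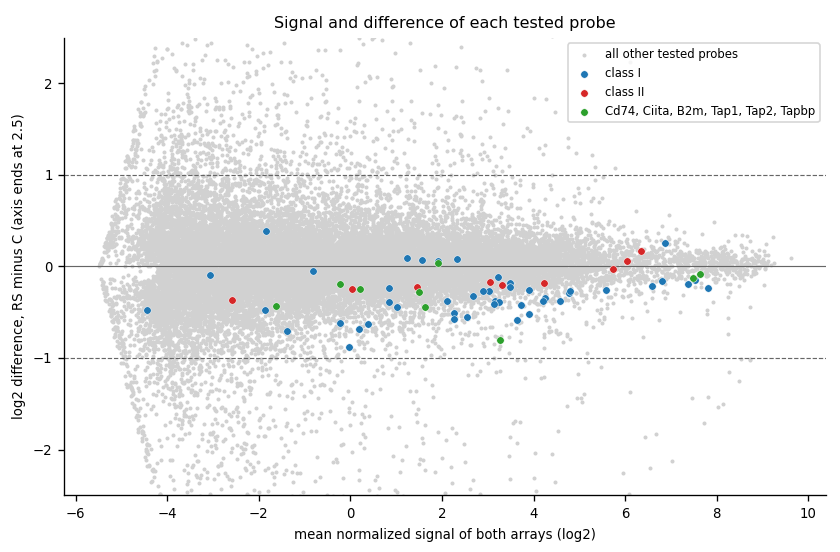
Difference (RS minus C, log2, vertical axis) against the mean normalized signal of both arrays (log2, horizontal axis) for all measured probes (gray) and the members (colored). Dashed lines mark 2-fold; no member lies beyond them, and 55 of 64 lie below 0 at low and high signal alike.

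The way the arrays were scaled moved both classes together. The 16 alternative settings changed not only the scaling but also the background, filter, source, or probes used. Over all of them, the class I median ran from -0.41 to -0.26 and the class II median from -0.28 to -0.15. The gap between the class medians ran from -0.15 to -0.09. Scaling by another constant per array cannot move that gap, which stayed at -0.13. The lowest medians of both classes came without scaling between the arrays, which moved the median of all measured probes by -0.10.

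**Figure D4:**
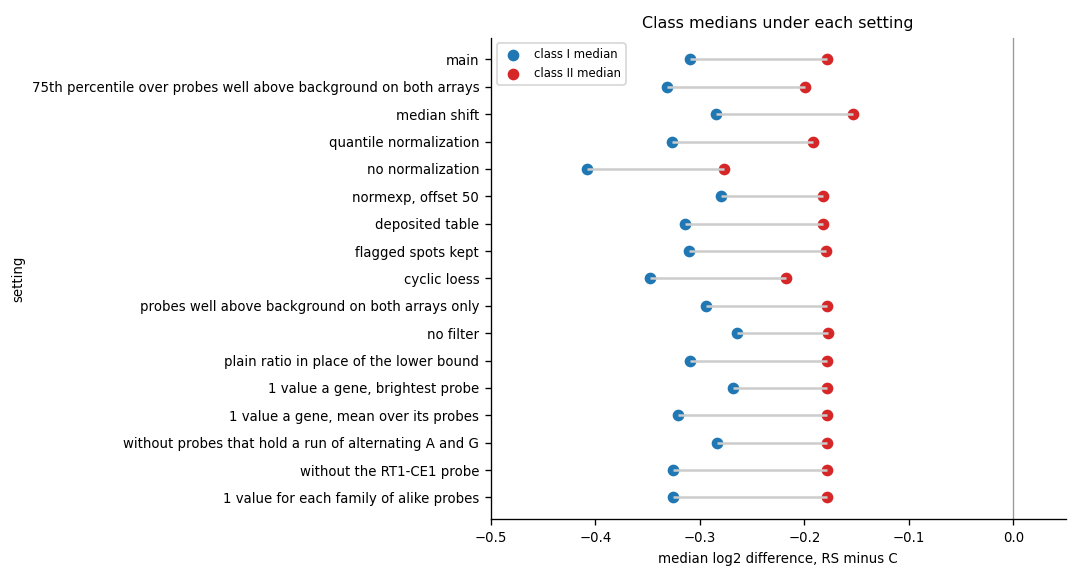
Median log2 difference of the class I probes (blue) and the class II probes (red) on the horizontal axis, under the main setting and 16 alternatives on the vertical axis. The class I median lies left of the class II median in each, by 0.09 to 0.15.

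Probes of 1 gene were a second check on single values. Of 20 member genes with several probes, 16 had at least 2 measured, and the differences within a gene spanned a median of 0.17. Only Ciita and RT1-M3-1 had probes of opposite sign, and the widest span, 0.84, was that of Ciita. RT1-T24-3, RT1-CE15, and RT1-T24-1 followed, with 0.53, 0.46, and 0.45. The probes of these genes point the same way but do not settle the size.

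Since whole nodes were measured, fewer cells of a type and less RNA per cell cannot be told apart. As a check of the labeled tissue, all 9 B cell markers found on the array by name and all 10 T cell markers were measured on both arrays. B cell markers had a median of -0.05, 5 of 9 were lower, and their intensities summed to 22995 for C and 20976 for RS. Such sums, here and below, are of intensities before scaling between the arrays, unlike the medians, and the brightest genes weigh most in them. Of these, only Fcer2, a low-affinity IgE receptor, passed 1.5-fold (1.53-fold lower). T cell markers had a median of -0.22, 8 of 10 were lower, and the sums were 36266 and 30103. Cd5 and Cd2, surface receptors of T cells, were 1.96-fold and 1.55-fold lower, while Cd4 gave 0.01 and Cd8a -0.52.

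Markers of antigen-presenting cells stayed near 0 as groups. The median of the dendritic cell markers was -0.04 over 7 measured genes (sums 3543 and 3402), with Xcr1 and Cd80 not well above background. That of the macrophage markers was 0.03 over 9 genes (sums 44594 and 40942), and Lyz2 carried most of these sums. In this list only Cd14, a receptor for bacterial lipopolysaccharide, passed 1.5-fold, at 3.18-fold higher. The part of any of these cells in the values of class I and class II was not tested.

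Other tissue moved far more between the arrays. All 7 measured erythrocyte markers rose by 2-fold or more, with a median of 2.60 and sums of 10236 and 57588, and Slc4a1 was not well above background. Of 9 measured fat cell markers, 6 rose by 2-fold or more, with a median of 1.63 and sums of 9927 and 22969. Among them Adipoq, Lep, Cidec, Retn, and Fabp4 were 6.67-fold, 9.47-fold, 7.85-fold, 5.99-fold, and 3.09-fold higher, Cfd was 2.12-fold higher, and Lpl was 1.67-fold higher. Endothelial markers had a median of 0.09 over 8 genes (sums 28306 and 31641), with Emcn 2.25-fold and Lyve1 1.57-fold higher. The Prox1 probe, one of those sharing the T and G run, carried most of these sums, and without it, a choice made after its value was seen, the median was 0.0048 over 7 genes (sums 5184 and 5358). The part of erythrocytes and fat in the lower RT1 signals was not tested.

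Interferon gamma induces both classes of the complex. Its 11 response genes, all measured, had a median of 0.14, and 4 of 11 were lower (sums 34264 and 34102 before scaling). Past 1.5-fold were Socs1, an inhibitor of cytokine signals, and the chemokine Cxcl10, at 2.89-fold and 1.54-fold higher. The transcription factors Irf8 and Irf1 gave -0.32 and 0.35.

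**Figure D5:**
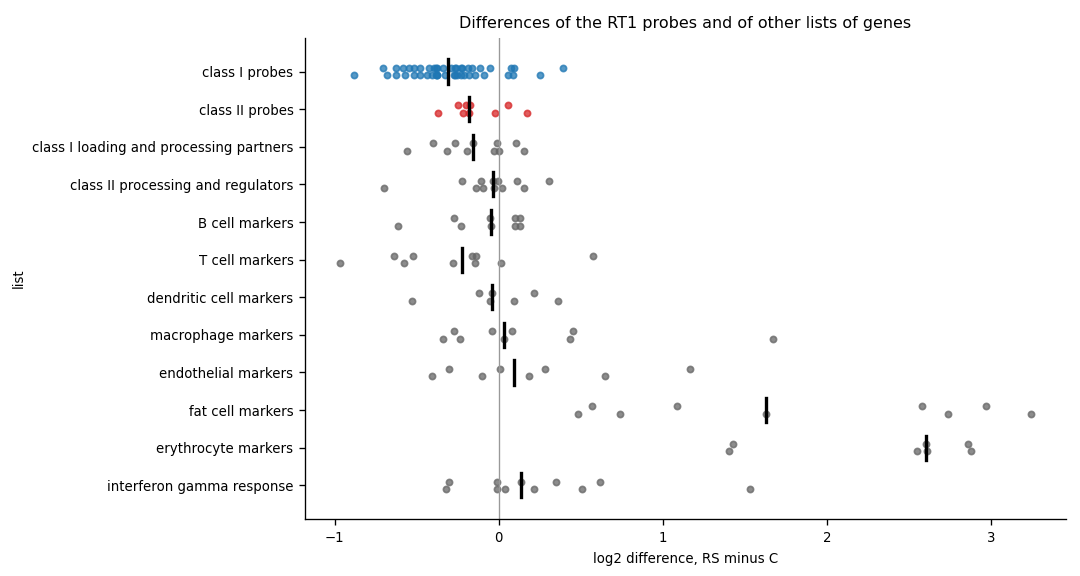
Log2 difference (RS minus C, horizontal axis) of each measured RT1 probe (colored) and of each measured gene of 10 other lists (gray, brightest probe of a gene), with the median of a list as a black line. The class I probes center on -0.31 and the class II probes on -0.18; the T cell markers center on -0.22, the fat cell markers on 1.63, and the erythrocyte markers on 2.60.

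The start regions of the genes were searched for letters known from promoters of the complex. RefSeq promoters of build GRCr8 were found for 45 of the 54 members, and the 250 bases before the start were searched on both strands. The letters CTGATTGG, the core of the Y box of class II promoters, stood in 7 of 9 class II promoters and 10 of 31 class I promoters, compared with 3.19% of all 33469 promoters. The X box letters CCNAGNNAC stood in 4 of 9 class II promoters, those of RT1-Da, RT1-Bb, RT1-DOb, and RT1-Ha, and 9 of 31 class I promoters (14.8% of all). Those of the X2 box, TGACG, stood in 1 of 9 class II and 8 of 31 class I promoters (18.2% of all). The kappaB letters GGGANTCCC stood in 8 of 31 class I promoters, among them those of RT1-A1, RT1-A2, and RT1-A3, and in none of the class II promoters (0.553% of all). An interferon element, TTTCNNTTT, stood in 4 of 5 added genes (B2m, Tap1, Tap2, and Tapbp), 6 of 31 class I promoters, and 1 of 9 class II promoters (10.3% of all). Only full matches were counted. The promoters of RT1-A1, RT1-A2, and RT1-A3 hold TTTCACTTC, which differs from these letters at the last base. The Y box letters contain a CCAAT box, which alone stood in 34.0% of all promoters. These matches are letters in a window and do not show binding, and no difference between the classes was tested.

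The promoters of a class II chain, a classical class I gene, and a loading partner are shown because they carry these letters in different sets. Capitals mark the X box and then the Y box in RT1-Da. They mark the kappaB letters and then the Y box on the other strand in RT1-A2, and the interferon letters in Tap1. The X2 letters, which RT1-A2 holds on both strands, and its CCAAT box outside the Y box are left in lower case.
RT1-Da, GRCr8 chr20:4515165-4515414, plus strand: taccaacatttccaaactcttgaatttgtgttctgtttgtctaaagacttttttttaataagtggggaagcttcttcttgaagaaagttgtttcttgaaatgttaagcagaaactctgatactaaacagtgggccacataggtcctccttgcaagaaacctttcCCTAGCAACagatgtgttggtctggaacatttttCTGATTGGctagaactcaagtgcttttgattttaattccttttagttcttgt
RT1-A2, GRCr8 chr20:4872621-4872870, plus strand: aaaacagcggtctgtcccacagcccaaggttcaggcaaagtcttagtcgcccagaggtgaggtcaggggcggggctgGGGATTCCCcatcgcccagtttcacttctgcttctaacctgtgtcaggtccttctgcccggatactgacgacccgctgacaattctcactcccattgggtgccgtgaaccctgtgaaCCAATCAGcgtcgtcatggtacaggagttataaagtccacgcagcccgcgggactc
Tap1, GRCr8 chr20:4668544-4668793, minus strand: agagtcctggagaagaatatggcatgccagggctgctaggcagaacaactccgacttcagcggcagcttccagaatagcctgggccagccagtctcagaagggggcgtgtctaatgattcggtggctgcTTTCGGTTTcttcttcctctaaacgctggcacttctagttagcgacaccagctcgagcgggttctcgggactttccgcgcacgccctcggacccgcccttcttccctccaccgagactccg

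Beside these sequences stand the values already given. On the RS array RT1-Da was at 0.17, RT1-A2 at -0.15, and the brighter Tap1 probe at -0.20, all within 2 spot errors of 0.

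Of the 68 RT1 probes, the files place 54 on chromosome 20 and 10 on contigs of that chromosome not placed in build rn4, and 4 have no position. On chromosome 20, the M probes lie between 1412672 and 2080109, the T probes between 2757529 and 2924111, the N, O, and S probes between 2787802 and 2820117, and the CE probes between 3412469 and 3554738. The class II probes follow, from RT1-Da at 4641104 to RT1-Ha at 4902878, with Tap2 and Tap1 among them. The A probes lie between 4999083 and 5060246, and 1 RT1-EC2 probe lies within that range, at 5059139 to 5059198. Sprague-Dawley rats are outbred, the probes follow reference sequences, and animals may carry other RT1 alleles, so that an allele difference between the rats and an effect of restraint cannot be told apart with 1 array a group.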

How the data were processed

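RNA of cervical lymph nodes, 1 C and 1 RS sample, was measured on 2 Agilent SurePrint rat arrays. The authors labeled it with Cy3 and extracted spots with Agilent Feature Extraction (11.5.1.1 in the submitters' processing notes), and they deposited spot intensity values, background-subtracted and not normalized between arrays. A deposited table holds log2 values whose scale its labels do not state. For 100% of its 45598 probes it lay within 0.1 of the normalized values computed here from the scanner output, with column medians of -3.523 for C and -3.551 for RS.

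Control spots and spots flagged as outliers (489 on C, 660 on RS) were left out, the log2 values of repeated spots were averaged per probe, and each array's 75th percentile was then subtracted. A probe counted as well above background when more than 50% of its spots were marked so. A probe above background on 1 array only was set against the lowest signal among such probes on the other array (9.45 for C, 8.52 for RS), and its difference is a bound. The threshold was 2-fold, as in the methods of the paper. With 1 array a group, no p-value was computed, and the number of arrays limits the precision.

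The members and gene lists were chosen with earlier results of these data known. Named were all members, with values for those above the 75th percentile, and list genes past 1.5-fold; other members and list genes were named after their values were seen. Values of some list genes are not reported here. Accessions matched the RefSeq table (GRCr8) for 64 of 77 member probes, all under the same symbol. Alternatives were 12 planned settings of scaling, background (limma's normexp, offset 50), filter, source, and probes of a gene, and 4 added after the data had been seen. Steps were tested on simulated arrays with changes well past 2-fold, larger than any member difference here, so that recovery of smaller differences was not tested. R 4.3.3, limma 3.58.1, Python 3.11.15, numpy 2.4.6, pandas 2.3.3, and matplotlib 3.10.9 were used.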

Additional observations from a re-analysis of the deposited data

How the results depend on the processing

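The medians of class I and class II and the gap between them kept their sign in all 16 alternatives, in which the gap could not move under scaling by another constant, and of which 4 (cyclic loess, without A and G runs, without the RT1-CE1 probe, and 1 value for each family of alike probes) were chosen after seeing the data. The count of members past 2-fold was 0 in 14 alternatives, 1 without a filter on dim probes, and 1 with the plain ratio in place of the bound. In both it was the second RT1-S2 probe, which was not well above background on the RS array. Of 64 member probes, 7 changed sign in at least 1 alternative: RT1-Bb, RT1-N2, both RT1-N3 probes, and the second probes of RT1-M3-1 and Ciita without scaling, and RT1-CE6 and again the second Ciita probe with normexp. Without scaling, 44 of 46 class I, 8 of 9 class II, and 9 of 9 added probes were lower. No paired analysis was possible because C and RS are 1 array each. Signal over background limits the 12 class I probes and the class II probe (RT1-Ba) that passed the background mark on neither array.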
